A study of Mus musculus with 54 samples.

Results

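Trimethylation of lysine 4 of histone H3 (H3K4me3) was mapped by ChIP-seq in mouse testis, and 16684 of the 34347 peaks listed for wild-type testis (48.6%) had no peak of the compound mutant beneath them. These WT-only peaks were chosen by a single rule: a peak of the wild-type (WT) list that shares not even 1 bp with any of the 20432 peaks of the compound mutant (CM, labelled DKO) list. The other 17663 WT peaks overlapped a CM peak and are called shared, and 5814 CM peaks overlapped no WT peak. Because the rule used the WT and CM peak calls, the height, width and number of WT-only peaks are given as a description, without a test.

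The WT animals were Ctcf+/+ Boris+/+, and the CM animals lacked 1 allele of Ctcf and both alleles of Boris (Ctcfl), so they were Ctcf+/- Boris-/-. Both were C57BL/6 males of 3 months, and chromatin came from germ cell enriched testis preparations, each pooled from 4 mice. Each genotype had 1 H3K4me3 library, so the difference between the lists has no replicate check and the genotype and the library cannot be told apart. CTCF, BORIS and RNA polymerase II (Pol2) ChIP had 2 replicates per genotype with 1 deposited peak list each, BORIS in WT only, and RNA-seq was done on 3 WT and 3 CM whole testis preparations and on sorted WT and CM round spermatids (3 libraries each) and WT spermatocytes (2 libraries). The RNA totals were 10437683 to 42055813 counts in the 6 whole testis libraries and 50861159 to 98545423 in the 8 sorted cell libraries, whereas the peak lists carry no read totals, so the ChIP depth behind them is unknown.

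H3K4me3 is laid down at the start sites of genes by SET1 and MLL methyltransferases, which reach DNA in part through proteins that recognise unmethylated CpG. In most tissues it marks promoters where Pol2 is loaded, and in germ cells it also marks enhancers, the promoters of silent developmental regulators and the sites at which PRDM9 directs meiotic recombination. CTCF is a zinc finger protein that halts cohesin and anchors chromatin loops, and BORIS is its germ cell paralog, which binds similar DNA.

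Before the results, the WT H3K4me3 list stands apart from the other 6 lists in its DNA. Centred windows of 300 bases were searched for a run of at least 6 consecutive CA or TA units (read as TG or TA on the other strand). A run was in 21.2% of the whole WT list and in 38.1% of its WT-only peaks. It was in 2.44% to 8.81% of the peaks in the 5 lists of other proteins and 2.57% in the CM H3K4me3 list. A word of 8 bases, GCATACGA on either strand, was in 2.50% of the whole WT list and 4.66% of its WT-only peaks. It was in 0.328% of the CM H3K4me3 list and in at most 0.106% of the peaks of any list of another protein. As background, these 8 letters also occur near the 3′ end of the P7 primer with which Illumina libraries are amplified, and the part of that primer in the list was not tested. The main shares, medians and counts below are therefore also given without 7064 WT-only peaks (42.3%). These held a repeat run or the word within the centred window, and the choice was made after the sequences were seen. Peaks left in can still hold a run or the word outside these 300 bases, as the median WT-only peak was 596 bp wide.

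Centred windows of 5 peaks show the kinds of DNA beneath the WT-only peaks, in mm9 coordinates on the plus strand. Capitals mark the feature named with each. The first pair were chosen because they scored highest among WT-only peaks with long CA/TA runs (capitals), away from and at a promoter.

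Peak nearest to Gm13173, chr4:152499735-152500034: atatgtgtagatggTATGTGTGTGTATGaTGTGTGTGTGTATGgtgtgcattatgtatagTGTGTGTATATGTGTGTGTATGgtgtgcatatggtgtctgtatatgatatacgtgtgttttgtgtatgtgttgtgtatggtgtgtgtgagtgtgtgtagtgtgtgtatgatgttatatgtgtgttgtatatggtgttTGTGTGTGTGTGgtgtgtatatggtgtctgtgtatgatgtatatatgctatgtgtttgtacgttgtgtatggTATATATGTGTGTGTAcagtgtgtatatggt

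Peak at the start of Ccdc70, chr8:23081642-23081941: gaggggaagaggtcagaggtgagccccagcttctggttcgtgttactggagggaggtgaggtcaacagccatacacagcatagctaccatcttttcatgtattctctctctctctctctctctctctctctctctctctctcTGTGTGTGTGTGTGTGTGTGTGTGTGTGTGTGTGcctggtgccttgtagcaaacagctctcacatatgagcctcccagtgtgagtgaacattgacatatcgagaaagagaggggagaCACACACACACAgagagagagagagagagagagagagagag

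The next window is that of the highest scoring WT-only peak with the word, which stands in capitals as TCGTATGC, followed by a TATA box (TATAAA, capitals).

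Peak nearest to Gm10217, chr8:9907945-9908244: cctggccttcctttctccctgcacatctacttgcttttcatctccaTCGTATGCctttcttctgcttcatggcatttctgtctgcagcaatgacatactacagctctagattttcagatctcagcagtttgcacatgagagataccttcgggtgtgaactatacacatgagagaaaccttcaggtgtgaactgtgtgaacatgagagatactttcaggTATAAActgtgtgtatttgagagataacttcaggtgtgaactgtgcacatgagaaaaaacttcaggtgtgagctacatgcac

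The peak of highest score away from promoters had neither a run nor the word, and its capitals mark a TATA box on the minus strand. Last is a peak that held Pol2, CTCF and BORIS in WT, with a GC box (GGGCGG) in capitals.

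Peak nearest to Gm5530, chr1:81950967-81951266: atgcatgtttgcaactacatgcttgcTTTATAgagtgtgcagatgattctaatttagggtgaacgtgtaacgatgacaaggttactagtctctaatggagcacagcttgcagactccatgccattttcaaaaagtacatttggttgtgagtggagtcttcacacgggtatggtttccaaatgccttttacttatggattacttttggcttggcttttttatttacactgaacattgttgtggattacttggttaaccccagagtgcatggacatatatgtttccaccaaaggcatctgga

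Peak nearest to Klk15, chr7:51183464-51183763: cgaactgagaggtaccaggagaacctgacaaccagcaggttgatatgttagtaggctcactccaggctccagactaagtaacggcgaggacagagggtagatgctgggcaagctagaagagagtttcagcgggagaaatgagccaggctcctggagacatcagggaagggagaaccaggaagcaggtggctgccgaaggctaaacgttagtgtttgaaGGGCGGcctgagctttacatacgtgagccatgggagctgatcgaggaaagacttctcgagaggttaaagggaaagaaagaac

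The Gm13173 window is a patchwork of TG and TA units in which no run exceeded 22 bases, and the Ccdc70 window carried an unbroken run of 34 bases beside a CT repeat. By contrast, the Gm5530 and Klk15 windows were free of such runs.

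WT-only peaks were mostly low and narrow. Their MACS score, which is -10 log10 of the peak's p-value with a listed minimum of 50, had a median of 74.67 (5th to 95th percentile 52.66 to 173.61), and the shared peaks had a median of 199.81. Median width was 596 bp for WT-only peaks and 1084 bp for shared ones. When the WT list was divided into 4 equal classes by score, WT-only peaks made up 4.45% of the highest class, 42.4% and 69.5% of the middle classes and 77.9% of the lowest. Without peaks holding a run or the word the medians were 73.05 and 204.93 for the score and 594 and 1108 bp for the width, and WT-only peaks made up 2.46% of the highest class and 70.2% of the lowest. Thus the class of strong WT H3K4me3 peaks was almost entirely shared, and most weak ones were WT-only. The histogram of scores shows both groups.

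**Figure D1:**
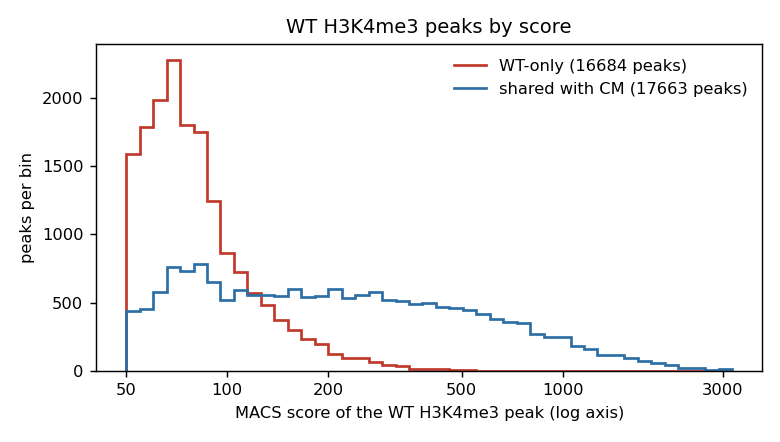
Number of WT H3K4me3 peaks (vertical axis) by MACS score (horizontal log axis), for WT-only peaks (red) and peaks shared with CM (blue), from 1 library per genotype. WT-only peaks pile up below a score of about 100 (median 74.67), and shared peaks spread to 3173.79 (median 199.81).

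Few WT-only peaks were near misses of a CM peak. The nearest CM peak was over 50 kb away for 7328 of them (43.9%), and the median gap was 38874 bp. For the 9620 peaks with no run or word in the centred window these were 4018 (41.8%) and 34158 bp. A CM peak lay up to 200 bp away for 483 (2.89%) and from there to 1000 bp away for 1015 (6.08%). At the edge of the rule, an exonic peak nearest to Leng9 (chr7:4099136-4099899, score 69.84) touched a CM peak at a gap of 0 bp. An intronic peak nearest to Acsbg2 (chr17:57011264-57011857, score 63.67) was shared through an overlap of 1 bp. Peaks this close to the edge were rare, with 31 WT-only peaks at a gap of 10 bp or less and 22 shared peaks with an overlap of 10 bp or less.

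WT-only peaks were spread over all autosomes, at 5.42 to 8.27 per Mb (median 6.72), and were sparse on the X chromosome, which is silenced as a whole during male meiosis, at 0.882 per Mb. Shared peaks were also sparser on X, at 1.92 per Mb against 5.16 to 11.02 on autosomes. Of the WT peaks on X, 31.5% were WT-only, below every autosome (41.4% to 55.9%). With repeat and word peaks left out, the shares were 26.8% on X and 30.9% to 43.8% on autosomes, and the densities of WT-only peaks 0.678 and 3.23 to 4.71 per Mb. They rarely clustered: 6.15% lay within 1 kb of another WT-only peak and 6.45% within 1 kb of a shared one, whereas 39.0% of shared peaks had another shared peak within 1 kb.

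Most WT-only peaks lay away from genes' start sites. Only 1191 of the 16684 (7.14%, 95% Wilson interval 6.76% to 7.54%) were within 1 kb of an annotated start, 446 (2.67%) lay in exons, 6308 (37.8%) in introns and 8739 (52.4%) between genes. The median distance to a start was 20749 bp, against 459 bp for shared peaks. Among shared peaks 63.7% were at promoters, a difference of -56.6 percentage points (95% Newcombe interval -57.4 to -55.7) that had the same sign on 20 of 20 chromosomes. The intervals here and below cover counting error within these lists only, as the peaks of a list come from the same library or libraries.

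The gap held in every score class, from -70.7 points in the highest (8.12% of 382 WT-only against 78.8% of shared peaks) to -36.2 points in the lowest (6.4% against 42.6%). Without peaks holding a run or the word it was -55.5 points (10.0% against 65.5%), so the difference was nearly as large without the repeat peaks. Among the members, those with a run were at promoters in 3.29%, those with the word in 2.70% and those with neither in 10.0%.

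Pol2, the enzyme that transcribes protein-coding genes, was seldom found at WT-only peaks. A WT Pol2 peak overlapped 2080 of them (12.5%) and 72.1% of shared peaks, a difference of -59.6 points (-60.4 to -58.8). For CM Pol2 the numbers were 1506 (9.03%) and 77.2%, a difference of -68.2 points (-69.0 to -67.4). Both differences had the same sign on 20 of 20 chromosomes, and both were also negative at promoters, away from them and in each score class. At promoters, where Pol2 is loaded, 19.8% of WT-only and 72.9% of shared peaks held WT Pol2. Without repeat and word peaks, the WT Pol2 share rose to 17.4% of 9620 WT-only peaks against 72.3% of shared ones, still -55.0 points (-56.0 to -53.9).

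Read in both genotypes together, 14241 WT-only peaks (85.4%) held no Pol2 peak in either, 1143 (6.85%) held it in both, 937 (5.62%) in WT alone and 363 (2.18%) in CM alone. Among the peaks with Pol2 in a single genotype, that genotype was WT at 937 of 1300 WT-only peaks (72.1%) and at 924 of 2760 shared peaks (33.5%), a difference of 38.6 points (35.5 to 41.5) with the same sign on 19 of 19 chromosomes with enough peaks. The Pol2 lists were not used by the rule, and they leaned towards WT where H3K4me3 was listed in WT alone. This held at promoters (56% of 150 against 15% of 1660), away from them (74.2% of 1150 against 61.4% of 1100) and without repeat and word peaks (73.1% against 31.6%).

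**Figure D2:**
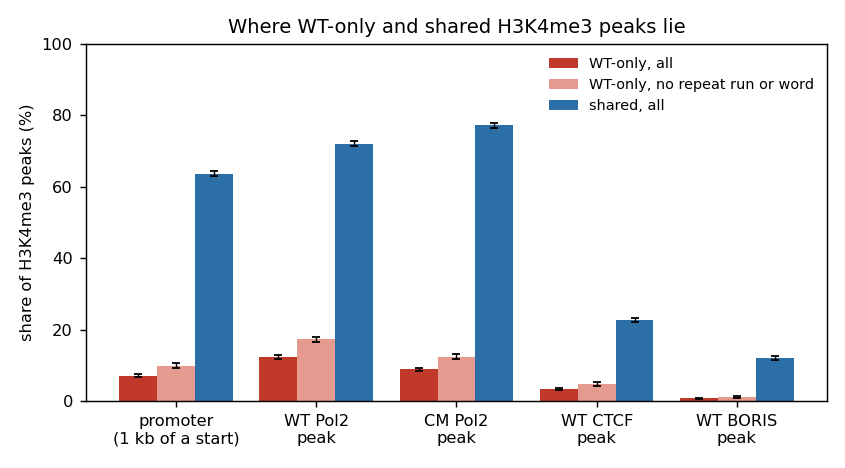
Share of H3K4me3 peaks (%) within 1 kb of a start or overlapping a Pol2, CTCF or BORIS peak, for all WT-only peaks (red), WT-only peaks with no repeat run or word (pale red) and all shared peaks (blue); bars are shares and whiskers 95% Wilson intervals over peaks of a list. In all 5 pairs the WT-only bars, with or without repeat and word peaks, stand below the shared bar, as for WT Pol2 (12.5% and 17.4% against 72.1%).

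CTCF and BORIS were likewise scarce. WT CTCF peaks overlapped 591 WT-only peaks (3.54%) and 22.8% of shared ones, a difference of -19.3 points (-20.0 to -18.6), and WT BORIS peaks overlapped 138 (0.827%) and 12.2%, a difference of -11.4 points (-11.9 to -10.9). Both had the same sign on 20 of 20 chromosomes. Of the 591 WT-only peaks with CTCF, 116 (19.6%) also held BORIS, against 40.6% of shared peaks with CTCF, and of the 138 with BORIS 84.1% held CTCF. CTCF at WT-only peaks was thus mostly CTCF without BORIS. That is not particular to them, as the paper reports most CTCF peaks of the whole WT testis list to be without BORIS. Without repeat and word peaks, 4.84% of WT-only and 23.6% of shared peaks held CTCF (-18.7 points, -19.5 to -18.0) and 1.30% and 12.7% held BORIS. Of these WT-only peaks with CTCF, 22.3% also held BORIS.

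The loss of CTCF in CM was less frequent there than at shared peaks. Of 601 WT CTCF peaks under WT-only peaks, 260 (43.3%, Wilson 39.4% to 47.3%) had no overlapping CM CTCF peak, against 2890 of 4167 under shared peaks (69.4%), a difference of -26.1 points (-30.2 to -21.9). Away from H3K4me3 in WT the share was 40.4%. The CTCF peaks differed in height, with a median summit signal of 830 under WT-only and 318 under shared peaks, and weak CTCF peaks were lost more often. Within 4 classes of equal size by CTCF height, the difference was -45.7 points (-53.5 to -36.3) in the second class from the top, -10.6 points (-18.9 to -4.21) in the third (81.4% against 92.0%) and -2.14 points (-6.69 to -0.174) in the lowest (96.9% against 99.1%). In the top class the interval spanned 0 (4.58% against 7.23%, -5.28 to 1.06). Without repeat and word peaks 206 of 473 CTCF peaks were lost under WT-only peaks (43.6%) and 69.7% under shared ones, a difference of -26.2 points (-30.8 to -21.4).

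The base composition of WT-only peaks was close to that of the genome rather than to CpG islands, the CpG-dense stretches at which H3K4me3 is usually found. GC content was 43.9% ± 7.24 (SD over 16684 windows of 300 bases), against 56.4% ± 11.4 in shared peaks and 41.8% in genome windows. CpG pairs numbered 3.15 per window, against 15.4 in shared peaks and 2.49 in the genome. The same was seen away from promoters, with 2.62 and 6.24 CpG per window. At promoters, WT-only peaks had 10.1 CpG per window and shared peaks 20.6. Peaks with no run or word had 45.5% GC and 4.11 CpG when WT-only, and 57.0% GC when shared.

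CA/TA repeat runs, which are among the most common simple repeats of the mouse genome, were far more common in WT-only than in shared peaks. A run was present in 6355 (38.1%, 37.4% to 38.8%), against 5.21% of shared peaks, 2.46% of CM-only peaks and 7.81% of 852787 windows sampled across the genome. The difference from shared peaks was 32.9 points (32.1 to 33.7), with the same sign on 20 of 20 chromosomes. Runs of 20 bases or more were in 25.3% of WT-only, 3.13% of shared and 1.05% of CM-only peaks. It was seen away from promoters (39.7% against 9.51%), at promoters (17.5% against 2.76%) and, away from promoters, in every score class (33.3% to 43.6% against 8.34% to 10.6%). The Gm13173 and Ccdc70 windows printed above are of this kind.

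The repeats also came first when no sequence was given beforehand. All words of 8 bases were ranked by the difference in share between WT-only and shared peaks away from promoters on odd-numbered chromosomes, and CACACACA came first. On the even-numbered chromosomes it was in 42.2% of WT-only and 13.0% of shared peaks, a difference of 29.2 points (27.5 to 30.8), against 8.77% of genome windows. The other words of the first 10, such as ACACACAT and TACACACA, were shifts of the same repeat.

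When peaks with a run were left out, the word GCATACGA (rank 209 among all peaks) moved to rank 1. On even-numbered chromosomes it was in 355 of 4373 WT-only peaks (8.12%) and in 0.986% of shared peaks, a difference of 7.13 points (6.23 to 8.03). Rank 5 was GGCATACG, the word shifted by a single base, in 5.92% and 0.835% there. The filter did not search for this shifted form. Over all chromosomes and peaks GCATACGA was found in 778 WT-only peaks (4.66%, 4.35% to 4.99%), 81 shared (0.459%), 8 CM-only (0.138%) and 0.0752% of genome windows. The sequence shares are drawn for every list.

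**Figure D3:**
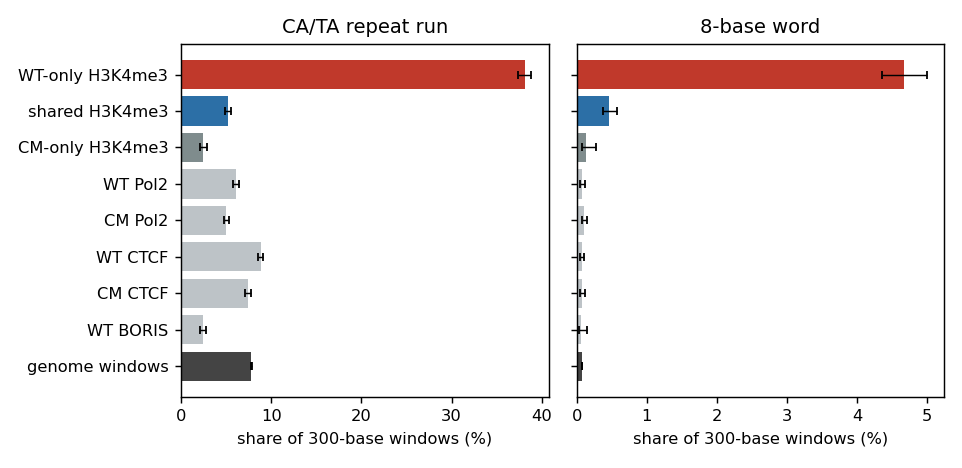
Share of 300-base centred windows (%) with a CA/TA repeat run (left) and with the 8-base word (right) in each deposited list or class of peaks and in genome windows; whiskers are 95% Wilson intervals. WT-only H3K4me3 peaks stand apart in both panels (38.1% and 4.66%), above the genome windows (7.81% and 0.0752%).

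Peaks with the word were higher than other WT-only peaks, with a median score of 93.3, against 76.4 with a run and 73.1 with neither. Among the 100 WT-only peaks of highest score 19 had the word, 23 a run, 38 a WT Pol2 peak and 11 a promoter, and among the first 1000 the numbers were 135, 368, 247 and 79. Few peaks with the word held WT Pol2 (3.34% of 778), against 6.07% with a run and 17.4% with neither.

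The word also kept a place and a direction within the peak. Read along its own strand, it lay before the peak centre in 901 of 1061 matches within 300 bases (84.9%), at a median of -92 bases (5th to 95th percentile -217 to 56). In the shared peaks it lay before the centre in 91 of 120 matches. The base just before it was G in 58.1% of matches. Repeat runs, read along the strand that shows the CA/TA units, had no such side, with 50.2% before the centre and a median offset of -1 bases. In the Gm10217 window printed above the word reads on the minus strand and so lies after the centre, unlike most.

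**Figure D4:**
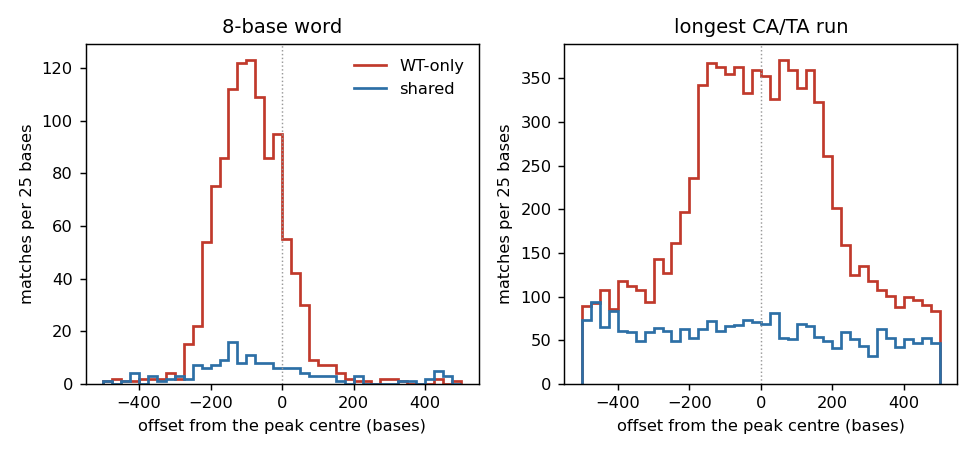
Number of matches per 25 bases (vertical axes) by offset from the peak centre in bases (horizontal axes), in WT-only (red) and shared (blue) peaks. Offsets run along the strand that shows the word (left) or the CA/TA units of the longest run (right). The word is shifted to one side of the centre in WT-only peaks (median -92 bases) and the runs are symmetric about it (median -1).

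Letters of transcription factor sites differed too. All were searched on both strands in the same windows, and a match is a description of letters, not of binding. The GC box (GGGCGG) was in 4.2% of WT-only and 34.2% of shared peaks (genome 2.84%), the ETS site (CCGGAAG) in 1.10% and 8.16% (0.838%), and the NRF1 site (GCGCANGCG) in 0.378% and 4.25% (0.137%). These are the sites typical of CpG-rich promoters. The TATA box (TATAAA) went the other way, with 17.1% and 8.21% (genome 27.2%). The cAMP response element of CREM (TGACGTCA) was in 0.156% and 1.00%, the YY1 site (AAGATGGCG) in 0.132% and 1.42%, the RFX site (GTTGCCATG) in 0.294% and 0.645%, the MYB site (AACTGNC) in 9.70% and 12.1%, the E-box (CACGTG) in 4.2% and 6.12% and the strict CTCF core in 0.15% and 0.311%. In the genome windows the MYB and CTCF core shares were 12.6% and 0.146%. No motif's letters contain those of another. Without repeat and word peaks the GC box was in 6.55% of WT-only and 35.8% of shared peaks, and the TATA box in 17.0% and 7.75%.

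The highest WT-only peak lay over Ccdc70, which encodes a coiled-coil protein, at chr8:23080337-23083246 (score 1115.84), with its centre 724 bp from the start, Pol2 in WT and CM and no CM H3K4me3 peak for 86210 bp. A second peak upstream of it at chr8:23078238-23080331 (score 501.27) held WT Pol2 alone. Next at promoters was AY036118 at chr17:39984336-39985918 (546.35), with a neighbour at chr17:39979790-39983772 (337.65, 3983 bp, the widest WT-only peak), each holding WT CTCF and BORIS. AY036118 lies in a copy of the ribosomal RNA gene, which is present many times in the genome, so reads there cannot be placed on a copy and these peaks are uncertain. Evc, a gene of the primary cilium, carried a peak of 545.25 with none of the other proteins 126 bp from an annotated start (chr5:37703301-37704157), and Arhgap30 one of 489.8 with WT Pol2 (chr1:173318810-173321004).

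Away from promoters the highest peaks lay at chr1:81950766-81951468 (764.69), chr4:152499273-152500497 (681.86, with WT Pol2) and chr1:133037176-133038274 (673.11, 102 bp from a CM peak). Next were chr8:9907660-9908530 (655.12, with the word) and chr11:121126293-121126866 (641.99, in an intron and nearest to the start of Foxk2). Only the chr4 peak of these held Pol2. Among those with CTCF or BORIS, the peak near Klk15, a kallikrein protease gene, at chr7:51182816-51184411 (373.03) held WT Pol2, BORIS and CTCF, with CTCF in both genotypes. A peak at chr5:77709675-77712637 (542.72) held CTCF and Pol2 in WT and neither in CM. It lay in an exon, and the nearest start was that of the microRNA gene AC141469.1, 9374 bp away. A peak in an exon at chr9:77502439-77503689 (317.64), nearest to the start of Klhl31, held the same proteins. A peak 94154 bp from Trpm1 at chr7:71204049-71205084 (330.18) held CTCF and Pol2 in both.

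At 859 genes a WT-only peak reached within 1 kb of a start and no CM H3K4me3 peak did, and these are called WT-only promoter genes. Of these, 589 were protein coding (68.6%), 112 processed transcripts, 65 pseudogenes, 45 long intergenic RNAs and 32 microRNAs, and the counts table of whole testis held 593. For 210 of the 1191 peaks (17.6%) a CM H3K4me3 peak lay within 1 kb of the peak, so the surroundings of such a peak were not always free of the mark in CM. Any annotated start counted, and some genes had their peak at an internal start, away from the outermost one. Among them were Prkcq, Esr1, Dpysl3, Sardh, Evc, Qrich2, Pgbd5 and Lgi4.

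Genes with a WT-only promoter peak were expressed at low levels. Their median in WT whole testis was 0.432 CPM per kb of exon (quartiles 0.135 to 1.70), against 6.87 for genes with a shared peak and 0.122 for genes with none. In CM the medians were 0.584, 7.41 and 0.134. In WT round spermatids and spermatocytes the WT-only genes had medians of 0.111 and 0.0394 CPM per kb. For the 674 WT-only promoter genes whose peak had no run or word, the medians were 0.477 CPM per kb in WT and 0.618 in CM whole testis. The levels thus stood between those of unmarked genes and those of genes with shared peaks.

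By groups of known function, WT-only promoter peaks fell on 9 of 69 developmental transcription factors (13.0%: Sox3, Foxc1, Tbx1, Otx1, Otx2, Six2, Neurog2, Twist1 and Isl1), on 5 of 39 Hox genes (12.8%: Hoxa6, Hoxa10, Hoxb1, Hoxd1 and Hoxd13) and on 3 of 20 spermatogonial genes (15.0%: Lin28a, Stra8 and Lhx1). None fell on the 31 meiotic prophase, 36 spermatid, 13 Sertoli, 8 Leydig, 9 macrophage, 8 peritubular and endothelial, 18 H3K4 methylation or 15 housekeeping genes, of which 27 of 31 meiotic and 33 of 36 spermatid genes had a shared peak at a start. All 8 Leydig and 8 of 9 macrophage genes had no H3K4me3 peak at a start in either list. Among the genes named in these groups, only the peaks of Stra8 and Isl1 held a run or the word. All 859 genes are 2.53% of the 33887 annotated symbols. At that share lists this short would hold few or no members, so the empty lists set no group apart. The Hox genes pattern the body axis and the listed transcription factors pattern organs. In germ cells such genes can be held silent by Polycomb proteins while carrying H3K4me3, but Polycomb was not measured here. In these lists 46 of the 69 factors and 25 of the 39 Hox genes had no H3K4me3 peak at a start in either genotype, and 9 and 6 had a shared one.

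The WT-only peaks at the genes of these groups were low, with scores from 52.66 at Stra8 to 241.99 at Tbx1. Transcripts were scarce as well. Of the 5 Hox genes, Hoxa10 was at 0.148, 0.194 and 0 CPM in the 3 WT testis libraries and at 0.0502, 0 and 0.156 CPM in CM, and no Hox gene of the group had enough counts to be tested in whole testis. Twist1, a mesodermal regulator, was at 0.265, 0.324 and 0.172 CPM in WT and 0.652, 0.734 and 1.56 CPM in CM, with no overlap, and rose by 1.82 ± 0.52 on the log2 scale (SE, n = 3 and 3, edgeR quasi-likelihood test, adjusted p = 0.0357). Lin28a, an RNA-binding protein of spermatogonia, was at 0.767, 1.10 and 0.602 CPM in WT and 1.56, 0.673 and 1.01 CPM in CM, groups that overlapped (adjusted p = 0.515, edgeR). For Stra8, the gate to meiosis, the values were 1.56, 0.906 and 0.774 CPM in WT and 2.28, 2.08 and 2.02 CPM in CM, which did not overlap and did not pass the test (log2 difference 0.91 ± 0.35, adjusted p = 0.0857, edgeR).

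In whole testis Ctcf was at 47.0, 39.9 and 40.7 CPM in WT and 27.4, 26.9 and 24.0 CPM in CM (log2 difference -0.74 ± 0.21, adjusted p = 0.0329, edgeR), and Ctcfl at 0.531, 0.582 and 0.688 CPM in WT and 0.201, 0.122 and 0.156 CPM in CM. Both targeted genes were thus lower in every CM library. Between the genotypes, 37 of the 407 WT-only promoter genes tested (9.09%) were lower in CM and 64 (15.7%) were higher, at an adjusted p under 0.05 and a fold over 2 in edgeR. Over all 16378 genes the shares were 5.90% lower and 15.3% higher. The members' share of higher genes was thus at the background and that of lower genes somewhat above it, and their median log2 difference was -0.08, against 0.00349 over all genes. In 92 of the 407 genes all 3 CM libraries were below all 3 WT libraries, and in 98 they were above (22.6% and 24.1%), against 24.6% and 22.4% of 10599 genes with a shared peak and 21.5% and 26.1% of all genes tested. These calls hang on single libraries: without WT replicate 2, WT replicate 3 or CM replicate 3 the lower members were 1, 0 and 0 and the higher ones 0 each, and the whole table then kept 7, 2 and 2 lower and 4, 1 and 2 higher genes. Without WT replicate 1, 18 members were lower and 34 higher.

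Genes whose WT-only promoter peak held Pol2 in WT or CM were called lower more often, with 19 of 78 lower (24.4%) and 8 higher (10.3%) and a median log2 difference of -0.58. Those without Pol2 had 18 of 329 lower (5.47%) and 56 higher (17.0%), with a median of 0.04. The Pol2 genes were also the more highly expressed, at a median of 4.76 against 0.731 CPM per kb in WT, and the split was not tested. Without peaks holding a run or the word, 31 of 330 were lower (9.39%) and 50 higher (15.2%), and the lower genes were 15 of 65 with Pol2 and 16 of 265 without.

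Most WT-only promoter genes called lower, like most genes lower in CM testis, were higher in round spermatids than in spermatocytes. Of the 37, 34 were tested between WT cell types and 26 (76.5%) were higher in WT round spermatids than in WT spermatocytes, against 69.7% of all genes lower in CM testis. Among those without a run or the word at the peak it was 21 of 29. Nt5c1b, a testis cytosolic nucleotidase that yields adenosine, was at 1815, 1391 and 1390 CPM in WT and 532.1, 700.9 and 508.2 CPM in CM. All 3 CM libraries were below all 3 WT libraries, and Nt5c1b fell by 1.43 on the log2 scale (SE 0.25, adjusted p = 0.0156, edgeR). Iqcf4, one of a cluster of IQ motif genes of the testis, was at 190.0, 273.2 and 231.9 CPM in WT and 40.2, 95 and 91.2 CPM in CM (log2 difference -1.65 ± 0.37, adjusted p = 0.0192, edgeR).

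Ccdc70, the gene beneath the highest WT-only peak, was at 301.9, 286.6 and 218.0 CPM in WT and 39.6, 148.9 and 114.8 CPM in CM. The groups did not overlap, and it fell by 1.43 on the log2 scale (SE 0.44, adjusted p = 0.0449, edgeR). Prkcq, protein kinase C theta, was at 558.2, 289.0 and 227.3 CPM in WT and 146.6, 148.3 and 114.1 CPM in CM (-1.41 ± 0.33, adjusted p = 0.0206, edgeR), and its peak lay at an internal start with Pol2 in both genotypes. The peaks of Nt5c1b, Iqcf4, Ccdc70, Prkcq and Dpysl3 all held WT Pol2.

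The steepest fall was that of Cdca7l, a MYC-linked nuclear protein, from 16.6, 3.62 and 17.2 CPM in WT to 2.48, 1.71 and 1.01 CPM in CM (-2.84 ± 0.59, adjusted p = 0.0173, edgeR). Its second WT library was far below the others. Lhx1, a LIM homeobox gene also used by spermatogonial stem cells, went from 4.84, 3.75 and 3.78 CPM to 0.652, 1.41 and 1.87 CPM (-1.74 ± 0.43, adjusted p = 0.0235, edgeR). It was nearly absent from the sorted cells, with at most 0.3 CPM in WT round spermatids. The other lower genes named by rule were 1700003F17Rik, Amn, Npb, Gm11978, 4930552N02Rik, Satl1 and Rxrg, with log2 differences from -2.32 to -1.53. Of these, the peaks of Gm11978, 4930552N02Rik and Rxrg held a repeat run.

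Most WT-only promoter genes called higher, like most genes higher in CM testis, were scarce in sorted germ cells. Of the 64, 48 (75%) were below 1 CPM in both sorted WT cell types, against 61.7% of all genes higher in CM testis. With repeat and word peaks left out it was 36 of 50. Ass1, argininosuccinate synthase, was at 7.23, 4.53 and 4.90 CPM in WT and 48.0, 30.8 and 78.3 CPM in CM (log2 difference 3.20 ± 0.38, adjusted p = 0.0151, edgeR). Esr1, the estrogen receptor alpha of Leydig and stromal cells, was at 4.34, 4.08 and 3.27 CPM in WT and 33.2, 7.27 and 26.1 CPM in CM (2.46 ± 0.50, adjusted p = 0.0168, edgeR). Igfbp7, a secreted protein of vessels and stroma, was at 13.8, 13.2 and 14.0 CPM in WT and 54.9, 43.2 and 121.1 CPM in CM (2.39 ± 0.39, adjusted p = 0.0154, edgeR). In all of these every CM library exceeded every WT library.

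Lefty2, a secreted inhibitor of Nodal signalling with a peak of score 407.56, rose from 0.295, 0.194 and 0.344 CPM to 2.41, 1.10 and 1.79 CPM (2.64 ± 0.45, adjusted p = 0.0154, edgeR). The remaining higher genes named by rule, Tmem132a, Lgi4, Sardh, Cpz, Pgbd5 and Igfbp3, had log2 differences from 2.34 to 3.02. The peaks of Lefty2 and Sardh held a repeat run. The plot of CPM by library shows the higher genes with the lower ones.

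**Figure D5:**
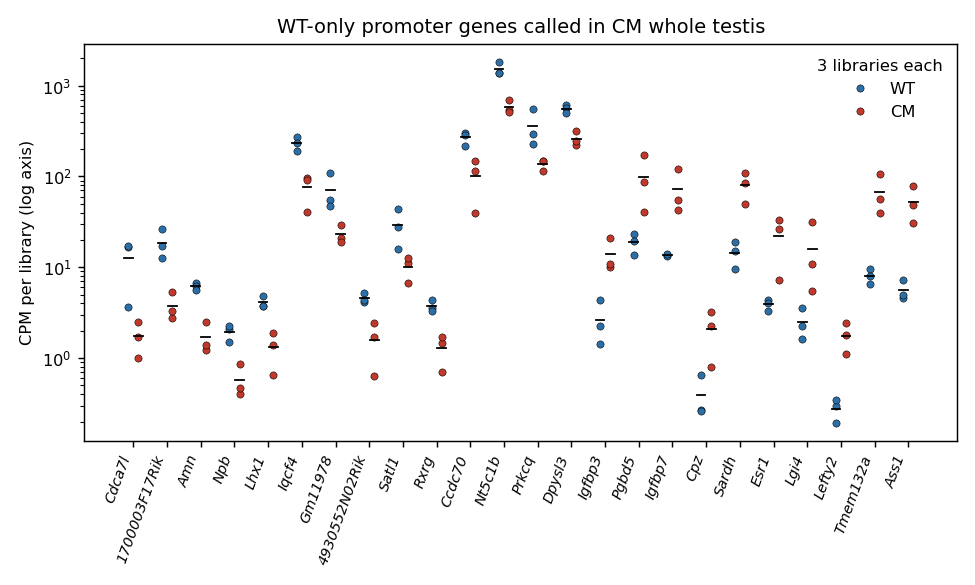
CPM per whole testis library (log axis) for WT-only promoter genes named by rule and called in CM, in 3 WT (blue) and 3 CM (red) libraries; black dashes are means. Genes from Cdca7l to Dpysl3 were lower in CM and genes from Igfbp3 to Ass1 higher, and in each the 3 CM libraries lie wholly on one side of the WT libraries.

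Markers of several testis cell types also differed between the genotypes, and those of others had few or no calls. Leydig cell genes summed to 373.5 to 672.8 CPM in WT and 1942 to 3917 CPM in CM, with 6 of 8 higher in CM. Macrophage genes summed to 79.2 to 191.3 and 242.1 to 776.2 CPM (8 of 9 higher) and Sertoli genes to 342.4 to 632.4 and 882.1 to 1928 CPM (7 of 13 higher). Spermatid genes fell from 41630 to 49743 CPM in WT to 13981 to 25962 CPM in CM, with 17 of 36 lower. Spermatogonial genes summed to 107.5 to 121.5 CPM in WT and 181.2 to 514.6 CPM in CM (5 of 19 higher, 1 lower). Only 1 of 8 peritubular and endothelial genes was higher, and none of 29 meiotic prophase genes was called. Their sums differed all the same. Peritubular and endothelial genes summed to 20.1 to 23.4 CPM in WT and 28.1 to 56.3 CPM in CM. Meiotic prophase genes summed to 4009 to 4518 CPM in WT and 2498 to 3689 CPM in CM. The part of these cell types in the calls of WT-only promoter genes was not tested. In these bulk preparations fewer cells of a type and less RNA per cell cannot be told apart. The same holds for the ChIP lists, which came from such preparations.

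Among genes of high expression that did not pass both thresholds were Qrich2, a flagellar protein gene, at 1081, 638.7 and 614.2 CPM in WT and 650.8, 441.8 and 255.7 CPM in CM (adjusted p = 0.117, edgeR), and Asap1, an Arf GTPase activating protein, whose CM values of 172.1, 183.8 and 125.9 CPM were all below the WT values of 313.5, 302.5 and 312.5 CPM. Asap1 had a log2 difference of -0.98 ± 0.23, short of the fold of 2 (adjusted p = 0.0214, edgeR). Evc passed the fold but not the p (log2 difference 1.48, adjusted p = 0.0681, edgeR), and it was called with the replicate number as a block (adjusted p = 0.00562, edgeR) and in DESeq2 (adjusted p = 0.0296). Arhgap30 passed neither, with a log2 difference of -0.99 and an adjusted p of 0.182 (edgeR).

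In sorted round spermatids no WT-only promoter gene was called between CM and WT, with 368 tested. Over all 15298 genes 0% were lower and 0.00654% higher in edgeR. At an unadjusted p under 0.05, 44 members were lower and 18 higher, against 1315 and 1821 of all genes. DESeq2 called 24 members lower and 8 higher, and 411 and 976 of all genes. Nt5c1b was at 730.8, 732.0 and 678.9 CPM in WT and 422.8, 275.0 and 303.0 CPM in the libraries labelled CM, with no overlap and an adjusted p of 0.107 in edgeR. Ctcf itself was not lower in these libraries, at 48.7, 31.3 and 29.4 CPM in WT and 172.1, 44.6 and 39.5 CPM in those labelled CM. Ctcfl was at 2.84, 5.12 and 3.38 CPM in WT and 2.55, 1.70 and 1.11 CPM in those labelled CM. Any direction drawn from the sorted CM libraries carries that limit.

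Between WT cell types, the WT-only promoter genes leaned to round spermatids. Of 391 tested, 166 (42.5%) were higher in round spermatids than in spermatocytes and 67 (17.1%) lower, with a median log2 difference of 0.82. Without repeat and word peaks 141 of 323 (43.7%) were higher and 54 (16.7%) lower. Over all 16052 genes 29.3% were higher and 23.0% lower, with a median of 0.02. Genes with a shared promoter peak leaned slightly the other way (22.7% higher, 26.7% lower), and those with no H3K4me3 peak had 42.2% higher and 14.7% lower. Genes with a CM peak but no shared peak at a start had 36.4% higher and 18.9% lower, with a median log2 difference of 0.49. The lean of the WT-only genes was thus close to that of the unmarked ones and not particular to them, and the likeness was not tested.

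Single genes showed the contrast with large values. Ccdc70 was at 60.8, 57.6 and 71.8 CPM in WT round spermatids and 0.762 and 0.992 CPM in WT spermatocytes (log2 difference 6.20 ± 0.21, adjusted p = 3.75e-07, edgeR). Iqcf4 was at 82.2, 122.4 and 134.8 CPM against 1.6 and 1.35 CPM (6.29 ± 0.29, adjusted p = 1.65e-06, edgeR). Satl1, an X-linked acetyltransferase-like gene, was at 103.7, 120.2 and 120.4 CPM against 1.41 and 1.52 CPM (6.32 ± 0.16, adjusted p = 1.36e-07, edgeR). Arhgap30 went the other way, with 5.13, 6.04 and 5.00 CPM in round spermatids and 18.5 and 18.8 CPM in spermatocytes (-1.76 ± 0.15, adjusted p = 3.34e-05, edgeR).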

How the data were processed

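ChIP-seq reads of 50 bases were aligned by the authors to mm9 with Bowtie2, and peaks were called with MACS or MACS2; for H3K4me3 and Pol2 no shifting model was built. The deposited H3K4me3 and Pol2 lists give the MACS score of each peak and the deposited CTCF and BORIS lists the summit signal, with no normalization stated. RNA counts per gene were deposited by the authors as raw counts, from rRNA-depleted whole testis RNA (Ion Proton, TopHat2 and Bowtie2) and poly(A) RNA of sorted cells (Illumina, STAR).

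Peaks were compared by overlap of at least 1 bp. A promoter peak is one whose centre lies within 1 kb of a GENCODE start on mm9, and a gene counts as a WT-only promoter gene if a WT-only peak and no CM peak overlaps the 1 kb on either side of its starts. Gene symbols of the tables matched the annotation in 93.9% and 94.0% of rows. Windows of 300 bases about the centre were read from the mm9 genome, and every 10th window of the genome served as the comparison. A repeat run had at least 6 units (12 bases). Shares carry 95% Wilson intervals and differences Newcombe intervals. Counts were tested with edgeR 4.0.16 (TMM, filterByExpr, quasi-likelihood, Benjamini-Hochberg over all genes tested) under R 4.3.3, and DESeq2 1.42.0 was an alternative; each test used only the groups compared, and edgeR was tested on simulated counts. CPM are scaled by TMM, and the standard error is the log2 difference over the root of the F statistic. Python 3.11.15, scipy 1.17.1, statsmodels 0.14.6 and pysam 0.24.0 were used for the rest.

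Named genes were the 10 with the largest change called in each direction at 1 CPM or more, the 5 of highest score, the 5 of highest WT level and the WT-only promoter genes of the function lists. Named peaks were the highest scoring 5 at promoters, 5 away from them and 5 with CTCF or BORIS, and those nearest to the edge of the rule. The members, lists and tests were chosen with earlier results of these data known, and the repeat and word filter was added after seeing the data. The 3 whole testis preparations of a genotype were separate. The labels give replicate numbers but no pairing of libraries, so the main tests were unpaired and the replicate number was fitted as a block only as an alternative. Same-numbered WT and CM whole testis libraries deviated together (correlations of 0.564, 0.175 and 0.280). The correlations were 0.0105 to 0.098 for round spermatids, and -0.118 and -0.0688 between the WT cell types.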

Additional observations from a re-analysis of the deposited data

How the results depend on the processing

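The shares of WT-only peaks at promoters and with Pol2, CTCF or BORIS, and the share of CTCF peaks lost, kept their direction against shared peaks under every alternative run, including other overlap limits, promoter windows and score limits and the removal of peaks with a repeat run or the word. The number of WT-only peaks was 4025 in the upper 50% of WT scores, 6731 with the upper 50% of scores in both lists and 9620 without peaks with a repeat run or the word. In whole testis, leaving out each library in turn gave 0 to 39 lower and 0 to 91 higher WT-only promoter genes. Without WT replicate 1 the counts were 18 and 34, and without CM replicate 3, WT replicate 2 or WT replicate 3 they were 0 or 1. At an adjusted p under 0.001 both counts were 0 in whole testis, where DESeq2 called 49 lower and 77 higher. With the replicate block, edgeR called 55 lower and 90 higher in whole testis, 155 higher and 63 lower between WT cell types and 0 in CM round spermatids, and the block changed no call count by over 1.5 times. In round spermatids, DESeq2 called 24 lower and 8 higher, and leaving out each library gave 0 to 18 lower and 0 to 3 higher, the upper values (18 and 3) without CM replicate 1. Over all genes DESeq2 called 411 lower and 976 higher there, and edgeR without CM replicate 1 called 431 lower and 380 higher of 15813. Between WT round spermatids and spermatocytes, an adjusted p under 0.001 left 101 higher and 33 lower, and leaving out each library gave 128 to 166 higher and 42 to 78 lower, 42 without WT spermatocyte replicate 2. The cause of these changes was not tested. The ChIP depth is unknown, and with 1 H3K4me3 library per genotype a peak missing from the CM list can lie below its calling limit.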
